A study of Mus musculus with 2 samples.

Results

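The genes described here handle the amino acid arginine: Arg1, Arg2, Nos2, Slc7a2, Ass1 and Odc1, which are 6 of the 32285 genes counted in single tumour-infiltrating immune cells. They were chosen by symbol, and all 6 were counted in both libraries. The cells came from subcutaneous MOC2 tumours, grown from a mouse oral carcinoma cell line with Matrigel in the flank of female C57BL/6 mice of 6 to 7 weeks, and were sorted on the leukocyte antigen CD45. The Momordicine-I mice received 30 mg/kg of this bitter melon triterpenoid by daily intraperitoneal injection in DMSO and Captisol, and the vehicle mice received the solvent. Of 10 mice per arm, tumours from 3 were pooled to make the 1 library of that arm. Every mouse thus carried the same transplanted line, and tumour-free mice were not analysed here.

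Arginine is used by enzymes that compete for it. Arginase 1 (Arg1, in the cytosol) and arginase 2 (Arg2, in mitochondria) split arginine into ornithine and urea, and the inducible nitric oxide synthase (Nos2) turns it into nitric oxide and citrulline. Slc7a2 encodes the cationic amino acid transporter CAT2, which brings arginine into the cell. Argininosuccinate synthase (Ass1) starts the rebuilding of arginine from citrulline, and ornithine decarboxylase (Odc1) turns ornithine into putrescine, the entry to polyamine synthesis. In tumours, arginase and nitric oxide synthase of myeloid cells are best known for restraining T cells, which need arginine to divide. In mouse macrophages Arg1 and Nos2 are widely used as markers of opposed activation states.

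In the mm10 genome (GRCm38) all 6 are protein-coding genes. Arg1 lies at chr10:24915221-24927484 on the minus strand. Arg2 and Odc1 lie on the plus strand of chromosome 12, at chr12:79130777-79156301 and chr12:17544794-17551505. Nos2 lies at chr11:78920787-78960254, Slc7a2 at chr8:40862396-40922308 and Ass1 at chr2:31470207-31520672, each on the plus strand. The end of Arg2 overlaps Vti1b, and its body the antisense gene Gm48780, both on the opposite strand, and whether the counting used strand is not given in the sources used here.

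Promoter sequence was at hand in the RefSeq table (GRCm38.p6) for Ass1 and Odc1, the members with a clear signal in dendritic cells, T cells and ILC2. The 150 bases before each gene start given above are shown 5′ to 3′ on the plus strand, so that the promoters of these genes can be set side by side. Capitals mark GGGCGG or its reverse complement, the GC box bound by SP1.
Ass1 promoter, chr2:31470057-31470206: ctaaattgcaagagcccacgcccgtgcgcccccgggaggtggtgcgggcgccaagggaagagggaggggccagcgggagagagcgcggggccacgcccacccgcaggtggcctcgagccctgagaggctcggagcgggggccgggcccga
Odc1 promoter, chr12:17544644-17544793: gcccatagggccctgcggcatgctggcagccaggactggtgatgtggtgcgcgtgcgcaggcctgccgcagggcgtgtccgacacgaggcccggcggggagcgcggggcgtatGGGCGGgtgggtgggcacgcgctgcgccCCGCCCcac
The Odc1 window held 2 matches to GGGCGG, 37 and 9 bases before the start, and the Ass1 window none. Neither window held CACGTG, the E-box bound by MYC and related factors, or TATAAA, the core of the TATA box. Among 32851 windows of the same length before RefSeq gene starts, searched on both strands, 4.295% held CACGTG, 28.6% GGGCGG and 7.57% TATAAA. A match describes these letters and does not show that a factor binds.

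The Momordicine-I library held 4370 cells with a median of 5002 UMIs, and the vehicle library 3364 cells with a median of 5760 UMIs. A UMI, or unique molecular identifier, marks 1 captured transcript. With 1 library per group there was no replicate and no test was possible, so the values compare these libraries. Every interval is an exact 95% interval that covers counting error only. Levels are UMIs of a gene per 1000000 UMIs of the cell class (CPM). Cells were gated by marker genes into classes. The largest class was neutrophils, led by S100a8 and S100a9, with 2947 Momordicine-I and 2141 vehicle cells. Mononuclear phagocytes, led by Lyz2 and C1qa, numbered 181 in Momordicine-I and 93 in vehicle, of which 141 Momordicine-I and 58 vehicle were monocytes and 40 Momordicine-I and 35 vehicle macrophages. The other classes were 117 Momordicine-I and 73 vehicle dendritic cells, 88 Momordicine-I and 218 vehicle B cells, 311 Momordicine-I and 341 vehicle T cells, 89 Momordicine-I and 56 vehicle NK cells, 46 Momordicine-I and 57 vehicle type 2 innate lymphoid cells (ILC2) and 31 Momordicine-I and 46 vehicle basophils or mast cells. T cell markers made up a median of 0.0878% of UMIs in Momordicine-I and 0.157% in vehicle cells of the ILC2 gate, against 0.273% in Momordicine-I and 0.316% in vehicle T cells and 0.0246% in Momordicine-I and 0.0243% in vehicle NK cells. The part of T cells in the values of the ILC2 gate was not tested. A further 142 Momordicine-I and 43 vehicle cells expressed keratins and are called tumour cells here. Ptprc, the gene of CD45, was found in 19.0% of these tumour cells in Momordicine-I and 20.9% in vehicle, against 91.2% of Momordicine-I and 91.7% of vehicle neutrophils. Outside every gate were 395 Momordicine-I and 284 vehicle cells, and the libraries shared 7 barcode sequences.

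Among the classes, Arg1 was highest in mononuclear phagocytes. Macrophages carried 466 CPM of Arg1 in the Momordicine-I and 576 CPM in the vehicle library, from 264 UMIs in 18 of 40 Momordicine-I cells and 227 UMIs in 17 of 35 vehicle cells. Monocytes carried 506 CPM in Momordicine-I and 152 CPM in vehicle, and neutrophils 104 CPM in Momordicine-I and 94.6 CPM in vehicle. The order of macrophages and monocytes thus differed between the libraries, and by CPM both stood above neutrophils in each. In vehicle monocytes, however, a single cell held 69 of the 166 Arg1 UMIs. With cells thinned to equal depth, Arg1 was found in 10.7% (4.03 to 21.9%) of vehicle monocytes and 4.29% (3.43 to 5.31%) of vehicle neutrophils. These intervals overlapped, so the place of vehicle monocytes above neutrophils is not settled. In Momordicine-I the thinned shares were 18.8% (12.7 to 26.4%) of monocytes and 5.17% (4.35 to 6.10%) of neutrophils. After neutrophils came ILC2, which hold arginase 1 in several mouse tissues, with 41.4 CPM in Momordicine-I and 79.9 CPM in vehicle. Arg1 was found in 10 of 46 Momordicine-I and 8 of 57 vehicle ILC2. These ILC2 levels rested on 11 Momordicine-I and 32 vehicle UMIs, and a single vehicle cell held 15 of the latter. Basophils and mast cells had no Arg1 UMI, which allows up to 16.3 CPM in Momordicine-I and 8.11 CPM in vehicle. B cells, taken as a class that should lack the gene, had 1 Momordicine-I and 8 vehicle Arg1 UMIs, in 1.14% of Momordicine-I and 3.21% of vehicle cells.

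**Figure D1:**
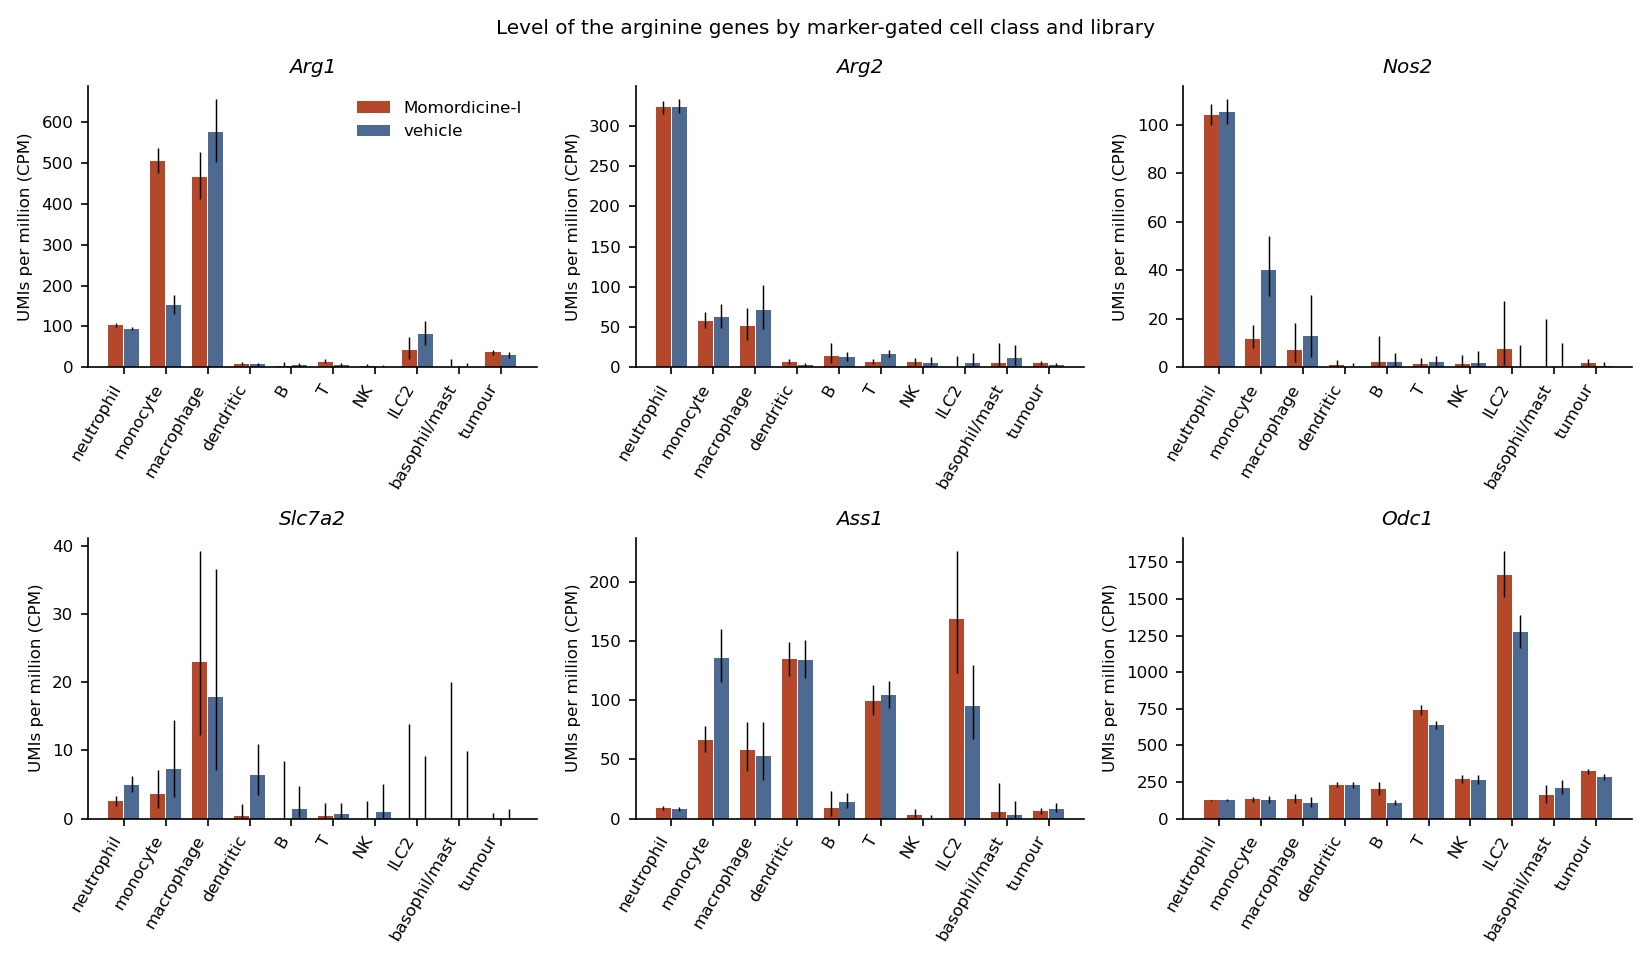
Level of each gene in CPM (linear axis starting at 0, 1 panel per gene with its own scale) by marker-gated cell class, with the Momordicine-I library left of the vehicle library in each pair. Bars are levels from summed UMIs and lines exact 95% counting intervals. Arg1 stands highest in macrophages (466 CPM in Momordicine-I and 576 CPM in vehicle) and in Momordicine-I monocytes (506 CPM), Arg2 and Nos2 in neutrophils, Slc7a2 in macrophages, and Odc1 in ILC2 (1666 CPM in Momordicine-I and 1276 CPM in vehicle).

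Few cells made up most of the Arg1 signal. An Arg1 UMI was found in 307 of 2947 Momordicine-I neutrophils, 10.4% (9.34 to 11.6%), and in 191 of 2141 vehicle neutrophils, 8.92% (7.75 to 10.2%). The 40 Momordicine-I and 26 vehicle neutrophils with 10 or more Arg1 UMIs held 75.2% of the neutrophil Arg1 UMIs in Momordicine-I and 77.6% in vehicle. These cells had medians of 21140 Momordicine-I and 24453 vehicle UMIs in all, against 4491 Momordicine-I and 5063 vehicle in neutrophils with no Arg1. Markers of monocytes and macrophages made up medians of 0.277% of their UMIs in Momordicine-I and 0.443% in vehicle, against 0.0197% in Momordicine-I and 0.0152% in vehicle neutrophils with no Arg1 and 0.685% in Momordicine-I and 0.686% in vehicle monocytes with no Arg1. Neutrophil markers made up medians of 3.37% in Momordicine-I and 3.50% in vehicle, against 6.06% in Momordicine-I and 5.69% in vehicle neutrophils with no Arg1. The part of barcodes that hold a neutrophil and a phagocyte together was not tested.

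Arg1 was also found in cells outside every gate, which held 18.0% of all Arg1 UMIs in Momordicine-I and 28.7% in vehicle. Of these, the 19 Momordicine-I and 14 vehicle cells with 10 or more Arg1 UMIs had medians of 1.497% in Momordicine-I and 0.902% in vehicle neutrophil-marker UMIs and 0.535% in Momordicine-I and 0.479% in vehicle phagocyte-marker UMIs. In tumour cells Arg1 stood at 36.1 CPM in Momordicine-I and 29.9 CPM in vehicle, with a UMI in 25.4% of Momordicine-I and 30.2% of vehicle cells.

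Arg2 was spread over most neutrophils. A UMI was found in 69.1% of Momordicine-I and 68.5% of vehicle neutrophils, at 323 CPM (315 to 331) in Momordicine-I and 324 CPM (316 to 333) in vehicle. Neutrophils held 93.5% of all Arg2 UMIs in Momordicine-I and 92.5% in vehicle, and their 10 highest cells held 2.94% of the neutrophil UMIs in Momordicine-I and 3.52% in vehicle, against 42.8% in Momordicine-I and 57.5% in vehicle for Arg1. The next classes were monocytes, at 57.8 CPM in Momordicine-I and 62.2 CPM in vehicle, and macrophages, at 51.2 CPM in Momordicine-I and 71.1 CPM in vehicle, whose intervals overlapped. B cells gave 13.7 CPM in Momordicine-I and 12.1 CPM in vehicle and a UMI in 6.82% of Momordicine-I and 7.80% of vehicle cells, at median depths of 4813 Momordicine-I and 6035.5 vehicle UMIs, against 4638 Momordicine-I and 5230 vehicle in neutrophils.

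The low Arg2 levels outside neutrophils were set against neutrophil-marker RNA in the same cells, a ratio chosen after the values were seen. Arg2 stood at 4.33 Momordicine-I and 4.001 vehicle UMIs per 1000 neutrophil-marker UMIs in neutrophils and at 17.7 in Momordicine-I and 20.1 in vehicle in monocytes, where the intervals lay above the neutrophil ratio. The intervals also lay above it in B cells, NK cells, tumour cells and vehicle T cells. The ratios were 19.8 (7.21 to 43.6) in Momordicine-I and 18.5 (10.9 to 29.4) in vehicle B cells, 17.4 (7.90 to 33.2) in Momordicine-I and 12.8 (4.69 to 28.2) in vehicle NK cells and 7.50 (4.19 to 12.4) in Momordicine-I and 14.2 (10.6 to 18.6) in vehicle T cells, and 22.7 (14.0 to 34.9) in Momordicine-I and 12.7 (4.62 to 27.8) in vehicle tumour cells. In macrophages the ratios were 5.95 in Momordicine-I and 8.86 in vehicle, and in dendritic cells 4.66 in Momordicine-I and 2.16 in vehicle. The macrophage interval held the neutrophil ratio in the Momordicine-I library and lay above it in the vehicle library.

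Nos2 was also a neutrophil gene in these tumours. It reached 104 CPM (99.8 to 109) in Momordicine-I and 105 CPM (100.4 to 110.5) in vehicle neutrophils, with a UMI in 20.9% (19.5 to 22.5%) of Momordicine-I and 19.7% (18.0 to 21.5%) of vehicle cells. Neutrophils held 93.2% of all Nos2 UMIs in Momordicine-I and 90.7% in vehicle. Monocytes had 11.7 CPM in Momordicine-I and 40.2 CPM in vehicle from 26 Momordicine-I and 44 vehicle UMIs in 8 Momordicine-I and 5 vehicle cells. Macrophages, in which Nos2 is classically described, had 4 UMIs in 1 Momordicine-I cell and 5 UMIs in 2 vehicle cells. In T cells 0.965% of Momordicine-I and 2.05% of vehicle cells had a Nos2 UMI, and in B cells 1.14% in Momordicine-I and 1.38% in vehicle. Per 1000 neutrophil-marker UMIs, Nos2 stood at 1.39 Momordicine-I and 1.30 vehicle in neutrophils, at 0.821 Momordicine-I and 1.58 vehicle in macrophages and at 3.61 in Momordicine-I and 12.99 in vehicle in monocytes. The macrophage intervals held the neutrophil ratio, and the monocyte intervals lay above it, as did that of Momordicine-I tumour cells at 7.58 (3.04 to 15.7).

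The arginine transporter gene Slc7a2 was sparse, with 104 Momordicine-I and 184 vehicle UMIs over all cells. Macrophages had the highest level, 23.0 CPM in Momordicine-I and 17.8 CPM in vehicle from 13 Momordicine-I and 7 vehicle UMIs, and neutrophils had 2.52 CPM in Momordicine-I and 4.98 CPM in vehicle from 51 Momordicine-I and 81 vehicle UMIs. No Slc7a2 UMI was found in tumour cells, which allows up to 0.668 CPM in Momordicine-I and 1.19 CPM in vehicle, nor in ILC2, basophils or mast cells. In dendritic cells 12 of the 13 vehicle UMIs came from 1 cell, and the Momordicine-I library had 1 UMI.

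Ass1, which starts the recycling of citrulline, was found mainly in dendritic cells, T cells, ILC2, monocytes and macrophages. Dendritic cells had 135 CPM (121 to 149.7) in the Momordicine-I and 134 CPM (119 to 151) in the vehicle library, with a UMI in 70.9% of Momordicine-I and 58.9% of vehicle cells. Within them the Ccr7-type mature dendritic cells were highest at 231 CPM in Momordicine-I and 204 CPM in vehicle, followed by cDC2 at 111 CPM in Momordicine-I and 152 CPM in vehicle and cDC1 at 72.6 CPM in Momordicine-I and 82.9 CPM in vehicle. A single vehicle cDC2 held 35.6% of the cDC2 Ass1 UMIs there. T cells had 99.7 CPM in Momordicine-I and 105 CPM in vehicle, ILC2 169 CPM in Momordicine-I and 94.9 CPM in vehicle and monocytes 66.9 CPM in Momordicine-I and 136 CPM in vehicle. Macrophages had 58.3 CPM in Momordicine-I and 53.3 CPM in vehicle, with a UMI in 15 Momordicine-I and 7 vehicle cells. NK cells, sequenced more deeply than T cells, had 3.41 CPM from 5 UMIs in the Momordicine-I library and no UMI in the vehicle library, which allows up to 2.75 CPM. Neutrophils had 8.86 CPM in Momordicine-I and 8.11 CPM in vehicle, with a UMI in 2.88% of Momordicine-I and 2.43% of vehicle cells.

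Odc1, the entry to polyamine synthesis, was found in each of the 10 classes. It was highest in ILC2, at 1666 CPM (1514 to 1828) in the Momordicine-I and 1276 CPM (1168 to 1392) in the vehicle library. T cells followed at 743 CPM in Momordicine-I and 638 CPM in vehicle. Tumour cells had 322 CPM in Momordicine-I and 283 CPM in vehicle, NK cells 270.4 CPM in Momordicine-I and 266 CPM in vehicle and dendritic cells 232 CPM in Momordicine-I and 226 CPM in vehicle. Monocytes, neutrophils and macrophages stood close together. They had 131 CPM in Momordicine-I and 128 CPM in vehicle monocytes, 124 CPM in Momordicine-I and 125 CPM in vehicle neutrophils and 134 CPM in Momordicine-I and 107 CPM in vehicle macrophages, with intervals that overlapped.

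Within T cells, Odc1 and Ass1 differed by subset, here split by single genes after the values were seen. T cells with Foxp3, the factor that defines regulatory T cells, had 1401 CPM of Odc1 in Momordicine-I (48 cells) and 1215 CPM in vehicle (77 cells). They also carried 196 CPM of Ass1 in Momordicine-I and 227 CPM in vehicle. T cells with Trdc or Il17a, genes of gamma-delta and IL-17 cells, had 643 CPM of Odc1 in Momordicine-I and 588 CPM in vehicle and 84.0 CPM of Ass1 in Momordicine-I and 48.6 CPM in vehicle. Those with Lef1, a factor of naive T cells, had 410.0 CPM of Odc1 in Momordicine-I and 200.2 CPM in vehicle and 63.6 CPM of Ass1 in Momordicine-I and 46.1 CPM in vehicle. Foxp3 cells thus carried more of both genes than Lef1 cells in each library, with intervals that did not overlap.

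The co-detection of Arg1 and Nos2 was counted cell by cell. Both genes were found in 98 Momordicine-I and 68 vehicle neutrophils, Arg1 alone in 209 in Momordicine-I and 123 in vehicle, Nos2 alone in 519 in Momordicine-I and 354 in vehicle and neither in 2121 in Momordicine-I and 1596 in vehicle. Nos2 was found in 31.9% (26.7 to 37.5%) of Arg1-positive neutrophils in the Momordicine-I library, against 19.7% (18.2 to 21.2%) of Arg1-negative ones. In the vehicle library the shares were 35.6% (28.8 to 42.8%) of Arg1-positive and 18.2% (16.5 to 19.9%) of Arg1-negative ones. The Arg1-positive cells were deeper, with medians of 9720 Momordicine-I and 12352 vehicle UMIs, against 4491 Momordicine-I and 5063 vehicle in Arg1-negative cells.

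After thinning to equal depth the intervals overlapped. With each cell thinned to 2000 UMIs, which left out 357 Momordicine-I and 255 vehicle neutrophils below that depth, Nos2 was found in 11.9% (6.98 to 18.7%) of Arg1-positive and 11.6% (10.4 to 12.98%) of Arg1-negative Momordicine-I neutrophils. In the vehicle library the thinned shares were 17.3% (9.78 to 27.3%) of Arg1-positive and 11.02% (9.62 to 12.6%) of Arg1-negative ones. Neutrophils were also split at 4003 and 6275 UMIs into a lowest, a middle and a highest band of depth. In the Momordicine-I library the shares in these bands were 6.25%, 9.84% and 44.9% in Arg1-positive and 12.8%, 15.9% and 34.2% in Arg1-negative cells. In the vehicle library they were 21.1%, 17.1% and 43.5% in Arg1-positive and 11.7%, 13.2% and 29.3% in Arg1-negative cells. Of Arg1-positive cells, 3 of 48 in the lowest and 6 of 61 in the middle Momordicine-I band had Nos2, and 4 of 19 and 7 of 41 in vehicle. The intervals overlapped in each of these lower bands. In the highest band the share was higher in Arg1-positive cells in both libraries, with intervals that did not overlap. They were 37.89 to 52.2% against 30.7 to 37.83% in Momordicine-I and 34.9 to 52.4% against 25.9 to 33.0% in vehicle. Arg1-positive cells of that band were again deeper, with a median of 16474 UMIs against 9890 in Arg1-negative cells of the Momordicine-I library, and of 16469 against 10473 UMIs in the vehicle library.

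**Figure D2:**
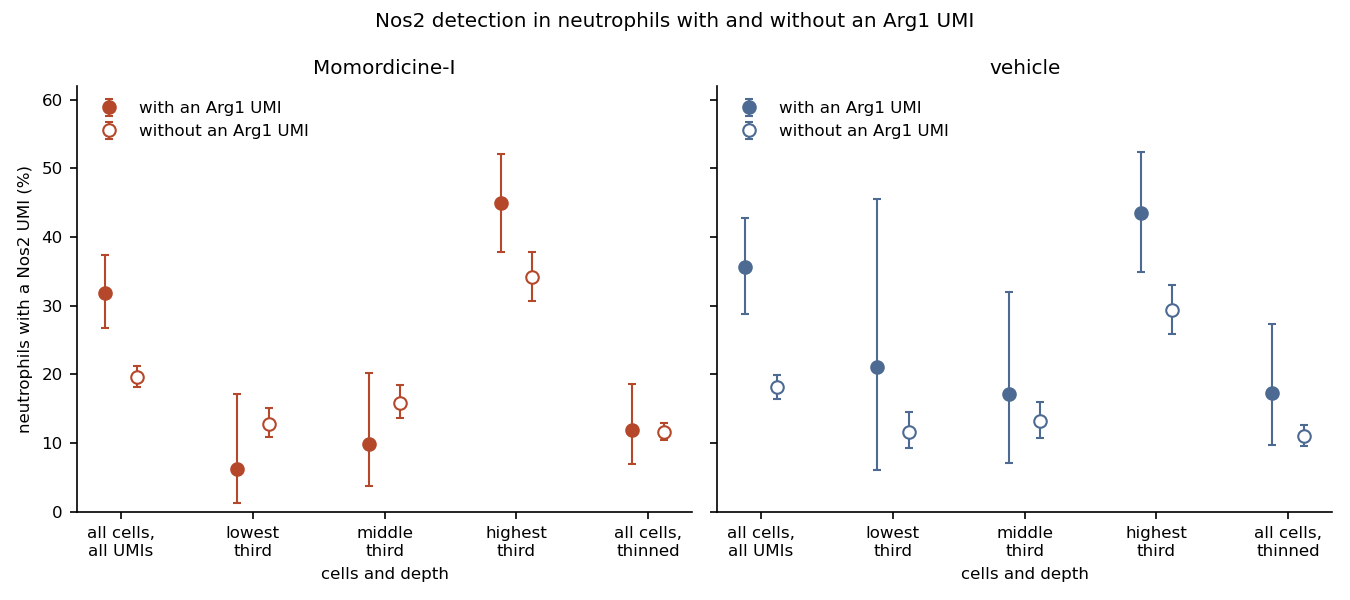
Share of neutrophils with a Nos2 UMI (percent), for cells with (filled) and without (open) an Arg1 UMI, in all cells, in 3 bands of UMI totals, and after thinning each cell to 2000 UMIs. The left panel is the Momordicine-I and the right panel the vehicle library, and lines are exact 95% intervals; with against without Arg1, 31.9% and 19.7% in Momordicine-I and 35.6% and 18.2% in vehicle at full depth are 11.9% and 11.6% in Momordicine-I and 17.3% and 11.02% in vehicle after thinning.

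In mononuclear phagocytes both genes were found in 6 Momordicine-I and 4 vehicle cells, Arg1 alone in 58 in Momordicine-I and 26 in vehicle, Nos2 alone in 3 in Momordicine-I and 3 in vehicle and neither in 114 in Momordicine-I and 60 in vehicle. Nos2 was found in 9.38% (3.52 to 19.3%) of Arg1-positive and 2.56% (0.532 to 7.31%) of Arg1-negative Momordicine-I phagocytes. In vehicle phagocytes the shares were 13.3% (3.76 to 30.7%) of Arg1-positive and 4.76% (0.993 to 13.3%) of Arg1-negative cells, and the intervals overlapped in each library. Of cells with 10 or more Arg1 UMIs, 18.5% of 27 Momordicine-I and 22.2% of 9 vehicle phagocytes had Nos2, against 50% of 40 Momordicine-I and 65.4% of 26 vehicle neutrophils. These phagocytes had medians of 19048 Momordicine-I and 14479 vehicle UMIs, and these neutrophils 21140 Momordicine-I and 24453 vehicle. Whatever their Arg1, 4.97% of Momordicine-I and 7.53% of vehicle phagocytes had Nos2, against 20.9% of Momordicine-I and 19.7% of vehicle neutrophils.

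**Figure D3:**
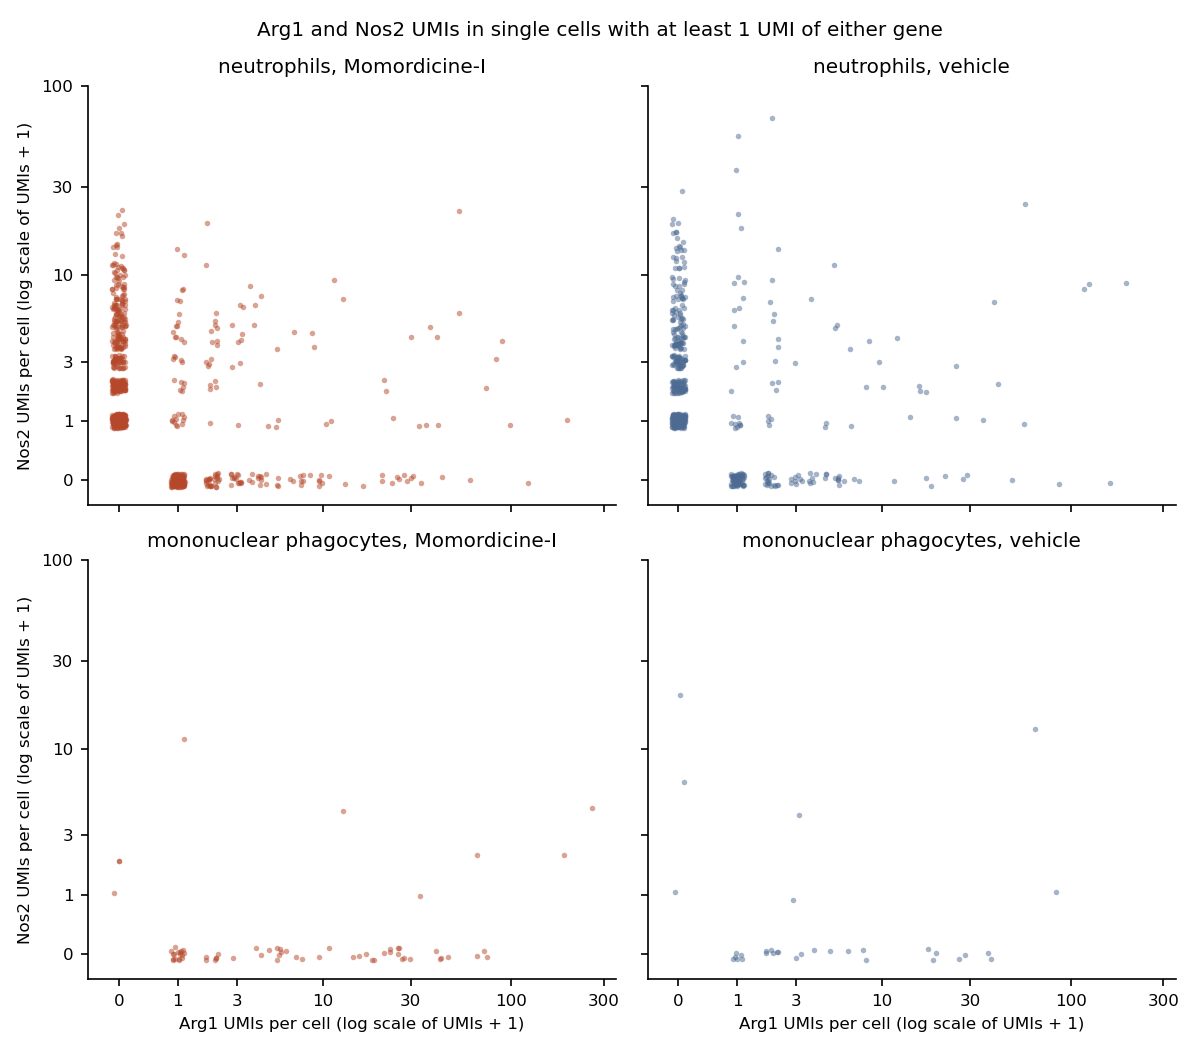
Arg1 and Nos2 UMIs per cell on log scales of UMIs + 1, each point 1 cell with at least 1 UMI of either gene, drawn with a small random shift. Neutrophils are on top and mononuclear phagocytes below, with Momordicine-I on the left and vehicle on the right. Most neutrophils with Nos2 have no Arg1 (519 Momordicine-I and 354 vehicle cells), and most phagocytes with Arg1 have no Nos2 (58 Momordicine-I and 26 vehicle cells).

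Other pairs of genes were counted in the thinned neutrophils. Arg2 was found in 43.3% of Arg1-positive and 44.9% of Arg1-negative Momordicine-I neutrophils, and in 50.6% of Arg1-positive and 44.1% of Arg1-negative vehicle ones. Nos2 was found in 11.3% of Arg2-positive and 11.96% of Arg2-negative Momordicine-I cells, and in 11.8% of Arg2-positive and 10.9% of Arg2-negative vehicle ones. For the 6 pairs among Arg1, Arg2, Nos2 and Odc1, the intervals with and without the partner overlapped in both libraries. Slc7a2 and Ass1 were rarer. Of Arg1-positive Momordicine-I cells, 3 of 134 had Slc7a2 (2.24%, against 0.0407% of Arg1-negative cells) and 5 of 134 had Ass1 (3.73%, against 0.529% of Arg1-negative cells), with intervals that did not overlap. These rest on few cells, as 4 of the 2590 thinned Momordicine-I neutrophils had Slc7a2 and 18 had Ass1. At full depth, phagocyte markers made up a median of 0.0641% of UMIs in Arg1-positive and 0.0197% in Arg1-negative Momordicine-I neutrophils. Their part in these pairs was not tested. In the vehicle library 2 of 81 Arg1-positive cells had Slc7a2 and 0 of 81 had Ass1, and those intervals overlapped.

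Neutrophils were divided into states by 4 marker lists that hold none of the 6 genes. Hypoxic neutrophils (Ndrg1, Egln3, Bnip3 and Hilpda, genes induced in low oxygen) numbered 958 in Momordicine-I and 771 in vehicle. Tumour-type neutrophils (Siglecf, Tnfrsf23, Ccl3 and Ccl4) numbered 727 in Momordicine-I and 567 in vehicle, mature-type neutrophils (markers including Ly6g, Mmp8 and Retnlg) 783 in Momordicine-I and 430 in vehicle, and interferon neutrophils (Ifit1, Ifit3, Rsad2 and Isg15) 135 in Momordicine-I and 164 in vehicle. A further 344 in Momordicine-I and 209 in vehicle scored for none. Median depths of the hypoxic, tumour and mature types ranged between 4727 and 5696 UMIs.

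Nos2 was higher in hypoxic neutrophils than in the mature or the tumour type in both libraries. In the Momordicine-I library it stood at 156 CPM in hypoxic, 68.6 in tumour-type and 77.5 in mature-type cells, and in the vehicle library at 166 CPM in hypoxic, 74.1 in tumour-type and 54.9 in mature-type cells. The ratio of hypoxic to mature type was 2.02 (1.80 to 2.27) in the Momordicine-I library and 3.02 (2.56 to 3.56) in the vehicle library, and that of hypoxic to tumour type 2.28 (2.03 to 2.57) in the Momordicine-I library and 2.23 (1.97 to 2.54) in the vehicle library. In thinned cells Nos2 was found in 20.2% (17.6 to 23.0%) of hypoxic and 7.88% (6.04 to 10.1%) of mature-type Momordicine-I cells, and in 19.8% (16.9 to 22.9%) of hypoxic and 5.96% (3.85 to 8.73%) of mature-type vehicle cells. In thinned tumour-type cells the share was 6.07% (4.35 to 8.20%) in Momordicine-I and 6.57% (4.57 to 9.11%) in vehicle. The separation from the mature and tumour types was thus also present at equal depth. In interferon cells the thinned Nos2 share was 13.8% (8.26 to 21.2%) in Momordicine-I, which overlapped the hypoxic share, and 7.19% (3.64 to 12.5%) in vehicle, which did not.

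Arg1 was also highest in hypoxic cells, at 172 CPM, against 85.8 in tumour-type and 43.7 in mature-type Momordicine-I cells. In the vehicle library the levels were 178 CPM in hypoxic, 33.5 in tumour-type and 42.3 in mature-type cells. The ratio of hypoxic to mature type was 3.92 (3.40 to 4.55) in the Momordicine-I library and 4.198 (3.50 to 5.07) in the vehicle library, though a single cell held 40.7% of the mature-type UMIs in Momordicine-I and 61.1% in vehicle. In thinned cells Arg1 was found in 6.78% (5.21 to 8.64%) of hypoxic and 2.99% (1.88 to 4.49%) of mature-type Momordicine-I cells, and in 6.93% (5.17 to 9.06%) of hypoxic and 2.23% (1.03 to 4.197%) of mature-type vehicle cells. In tumour-type cells the thinned share was 5.60% (3.95 to 7.67%) in Momordicine-I, which overlapped the hypoxic share, and 2.99% (1.68 to 4.88%) in vehicle, which did not. In interferon cells it was 5.69% (2.32 to 11.4%) in Momordicine-I and 3.27% (1.07 to 7.46%) in vehicle, and both overlapped the hypoxic share. Phagocyte markers made up 0.0960% of the UMIs in Momordicine-I and 0.0915% in vehicle hypoxic neutrophils and 0.0678% in Momordicine-I and 0.0581% in vehicle mature-type neutrophils, and their part in the Arg1 difference was not tested.

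The other arginase, Arg2, was lower in hypoxic than in mature-type cells. It stood at 311 CPM in Momordicine-I and 304 CPM in vehicle hypoxic cells and at 388 CPM in Momordicine-I and 387 CPM in vehicle mature-type cells, a ratio of 0.803 (0.756 to 0.853) in the Momordicine-I library and 0.787 (0.732 to 0.845) in the vehicle library. Against the tumour type the Arg2 ratio was 1.04 (0.974 to 1.11) in the Momordicine-I library and 0.9747 (0.910 to 1.04) in the vehicle library. Odc1 was higher in hypoxic than in mature-type cells, at 147 CPM in Momordicine-I and 132 CPM in vehicle hypoxic cells and at 90.5 CPM in Momordicine-I and 84.3 CPM in vehicle mature-type cells, a ratio of 1.62 (1.46 to 1.82) in the Momordicine-I library and 1.56 (1.36 to 1.80) in the vehicle library. Hypoxic cells did not stand above every other group for Odc1. Its ratio of hypoxic to tumour type was 1.26 (1.14 to 1.39) in the Momordicine-I library and 0.967 (0.871 to 1.07) in the vehicle library. It reached 152 CPM (127 to 180) in Momordicine-I interferon cells, which overlapped the hypoxic interval. Vehicle cells that scored for no state had 205 CPM, of which a single cell held 23.1%. In thinned cells Odc1 was found in 10.6% of these interferon and 16.4% of hypoxic Momordicine-I cells. In vehicle it was found in 13.2% of no-state and 15.7% of hypoxic cells, and the intervals overlapped in both libraries.

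**Figure D4:**
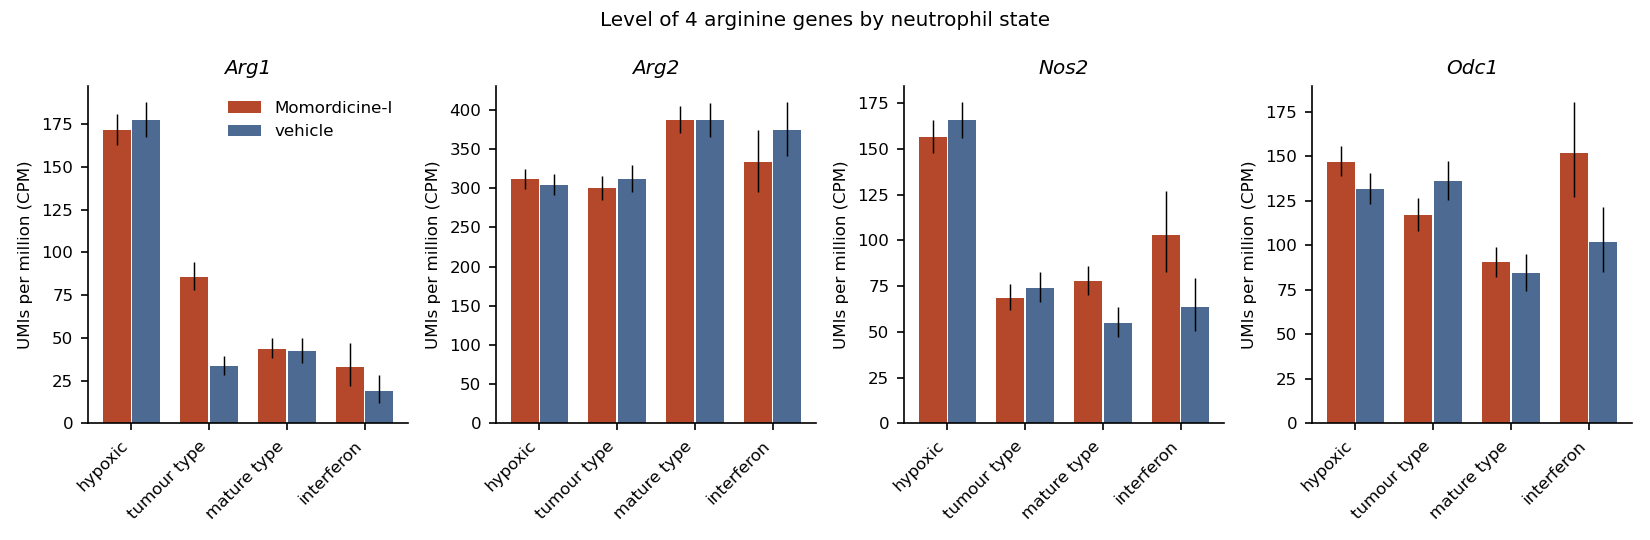
Level of Arg1, Arg2, Nos2 and Odc1 in CPM (linear axes starting at 0) in neutrophil states set by marker lists, with Momordicine-I left of vehicle in each pair. Lines are exact 95% counting intervals. Nos2 and Arg1 are highest in hypoxic cells (Nos2 156 CPM in Momordicine-I and 166 in vehicle, Arg1 172 CPM in Momordicine-I and 178 in vehicle), and Arg2 in mature-type cells (388 CPM in Momordicine-I and 387 in vehicle).

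Momordicine-I was compared with vehicle, the question of the study, in the 7 classes with at least 50 cells in both libraries. A gene with at least 20 UMIs was called higher or lower when its CPM differed by at least 1.5-fold. In neutrophils none of the 6 genes was higher, where 11.4% of all genes were, and 1 was lower, where 5.23% were. Arg2 had a ratio of 0.996 (0.961 to 1.03), Nos2 0.989 (0.927 to 1.05) and Odc1 0.992 (0.935 to 1.05). Arg1 had a ratio of 1.09 (1.02 to 1.17) and Ass1 of 1.09 (0.867 to 1.38). The median gene of neutrophils lay at 0.13 on the log2 scale, the same as Arg1. Slc7a2 was the lower gene, with a ratio of 0.507 (0.350 to 0.728). It had 51 UMIs in 34 Momordicine-I and 81 UMIs in 35 vehicle neutrophils, of which the highest cell held 5 in Momordicine-I and 13 in vehicle. Its log2 ratio of -0.98 was -0.47 with a stricter gate, -0.57 without the top 2.5% of UMI totals, -0.40 as a mean over cells and -2.16 in thinned cells.

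In monocytes Arg1 was higher and Nos2 and Ass1 were lower in the Momordicine-I library, 1 gene and 2 genes of 5, where 9.12% of all genes were higher and 11.5% lower. Arg1 stood at 506 CPM (477 to 536) in the Momordicine-I and 152 CPM (129.5 to 177) in the vehicle library, a ratio of 3.33 (2.83 to 3.95). A UMI was found in 46 of 141 Momordicine-I monocytes, 32.6% (25.0 to 41.0%), and in 13 of 58 vehicle monocytes, 22.4% (12.5 to 35.3%), so the intervals of the shares overlapped. The 10 highest cells held 75.5% of the Arg1 UMIs in Momordicine-I and 98.2% in vehicle, and the highest cell 257 Momordicine-I and 69 vehicle UMIs. The log2 ratio of 1.74 was 0.39 with a stricter gate, 0.64 with a looser one and 1.03 as a mean over cells. Neutrophil markers made up 0.697% of the summed UMIs of the 20 Momordicine-I and 0.293% of those of the 4 vehicle monocytes with 10 or more Arg1 UMIs. In monocytes with no Arg1 they made up 0.181% in Momordicine-I and 0.305% in vehicle. The medians over cells were 0.179% in Momordicine-I and 0.0705% in vehicle with 10 or more Arg1 UMIs. With no Arg1 they were 0.0764% in Momordicine-I and 0.106% in vehicle. The gate required no lead between monocytes and macrophages, which share a lineage. Macrophage markers made up 0.329% of monocyte UMIs in Momordicine-I and 0.230% in vehicle, and monocyte markers 0.377% in Momordicine-I and 0.491% in vehicle. Macrophages had 466 CPM of Arg1 in Momordicine-I and 576 CPM in vehicle. The part of this make-up in the monocyte ratios was not tested.

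Over all mononuclear phagocytes Arg1 stood at 498 CPM in Momordicine-I and 264 CPM in vehicle, a ratio of 1.88 (1.68 to 2.11). Here too it was the 1 gene of 6 that was higher and Nos2 and Ass1 were the 2 lower ones, where 7.57% of all genes were higher and 10.5% lower. The Arg1 log2 ratio of 0.91 turned to -0.089 as a mean of the cells' own CPM. The Ass1 log2 ratio of -0.81 was -0.47 with a looser gate, -0.46 without the top 2.5% of UMI totals and -0.40 as a mean over cells. In cells outside every gate Arg1 stood at 159 CPM in the Momordicine-I and 197 CPM in the vehicle library.

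Nos2 had a ratio of 0.292 (0.173 to 0.485) in monocytes and 0.328 (0.201 to 0.527) in mononuclear phagocytes. A single monocyte held 11 of the 26 Momordicine-I UMIs and another 21 of the 44 vehicle UMIs. With cells thinned to 2000 UMIs the log2 ratios turned to 0.51 in monocytes and 0.20 in phagocytes. With a stricter gate the monocyte log2 ratio of -1.78 was -4.79. Ass1 stood at 66.9 CPM in Momordicine-I and 136 CPM in vehicle in monocytes, a ratio of 0.491 (0.388 to 0.620), with a UMI in 51 Momordicine-I and 29 vehicle cells. The highest monocyte held 8.78% of the Ass1 UMIs in Momordicine-I and 27.5% in vehicle, and without it in each library the log2 ratio of -1.03 was -0.75. Arg2 and Odc1 had monocyte ratios of 0.930 (0.688 to 1.27) and 1.02 (0.834 to 1.26).

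**Figure D5:**
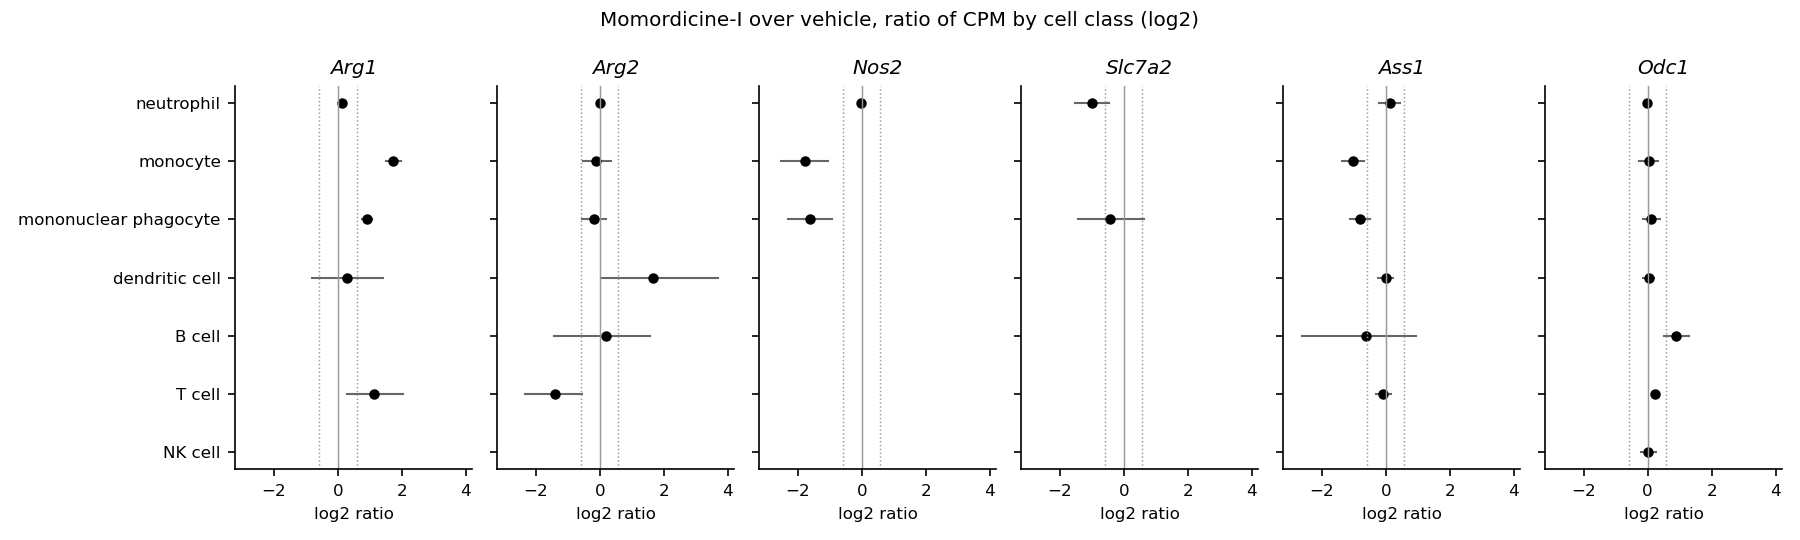
Ratio of Momordicine-I to vehicle CPM on the log2 scale (x axis) by cell class (y axis), 1 panel per gene, for classes with at least 20 UMIs of the gene over both libraries. Points are ratios, lines exact 95% counting intervals, the solid line marks no difference and dotted lines a 1.5-fold difference. Arg1 in monocytes (1.74) stands to the right, and Nos2 in monocytes (-1.78) to the left.

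In B cells Odc1 was higher and Ass1 lower, 1 gene each of 3, where 11.2% of all genes were higher and 16.2% lower. Odc1 stood at 202 CPM (162 to 248) in the Momordicine-I and 108 CPM (91.96 to 126) in the vehicle library, a ratio of 1.87 (1.42 to 2.44), with a UMI in 48.9% of Momordicine-I and 39.0% of vehicle cells. Its log2 ratio of 0.90 was 0.34 with at most 5% mitochondrial UMIs and 0.40 in thinned cells, under the 1.5-fold limit. Ass1 had 4 Momordicine-I and 21 vehicle UMIs (ratio 0.651, 0.162 to 1.93), too few to tell a difference.

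In T cells Arg1 was higher and Arg2 lower, 1 gene each of 4, where 8.15% of all genes were higher and 10% lower. Arg1 had 32 Momordicine-I and 19 vehicle UMIs (ratio 2.20, 1.21 to 4.11) and Arg2 had 15 Momordicine-I and 52 vehicle UMIs (ratio 0.377, 0.197 to 0.680). The Arg1 log2 ratio of 1.14 was 0.30 with a stricter gate, 0.32 in thinned cells and 1.66 without the highest cell of each library, and that of Arg2 of -1.41 was -0.12 in thinned cells. Of the Arg1 UMIs, 19 of the Momordicine-I and 9 of the vehicle ones came from Foxp3 cells, those of the vehicle library from 1 cell. Neutrophil markers made up 0.0831% of Momordicine-I and 0.117% of vehicle T cell UMIs, and their part in these low counts was not tested. Odc1 had a ratio of 1.16 (1.09 to 1.24) in T cells, and Ass1 of 0.953 (0.804 to 1.13).

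The mix of T cells differed between the libraries, with 48 Momordicine-I and 77 vehicle Foxp3 cells, 146 Momordicine-I and 59 vehicle Trdc or Il17a cells and 78 Momordicine-I and 165 vehicle Lef1 cells. Odc1 had a ratio of 1.15 (1.05 to 1.27) in Foxp3 cells, where 9.33% of all genes were higher by 1.5-fold and 13.2% lower. In Trdc or Il17a cells the Odc1 ratio was 1.09 (0.946 to 1.27) and the Ass1 ratio 1.73 (1.07 to 2.91), where 14.6% of all genes were higher and 13% lower. The Ass1 ratio rested on 79 Momordicine-I and 22 vehicle UMIs. An Ass1 UMI was found in 32.2% (24.7 to 40.4%) of Momordicine-I and 27.1% (16.4 to 40.3%) of vehicle cells, so the intervals overlapped. In Lef1 cells the Odc1 ratio was 2.05 (1.73 to 2.43), where 11.6% of all genes were higher and 14.3% lower. A single Lef1 cell held 20.6% of the Momordicine-I Odc1 UMIs, and without the highest cell of each library the ratio was 1.74. ILC2, with fewer than 50 Momordicine-I cells, had ratios of 1.31 (1.15 to 1.49) for Odc1 and 1.78 (1.13 to 2.82) for Ass1, where 18.3% of all genes were higher and 13.5% lower. Ass1 there had 45 Momordicine-I and 38 vehicle UMIs. It was found in 37.0% (23.2 to 52.5%) of Momordicine-I and 31.6% (19.9 to 45.2%) of vehicle ILC2, and these intervals overlapped.

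In dendritic cells Arg2 was the 1 gene of 4 that was higher and none was lower, where 10.3% of all genes were higher and 6.71% lower. It rested on 16 Momordicine-I and 4 vehicle UMIs (ratio 3.15, 1.02 to 12.96), and its direction turned with a looser gate. Ass1 had a ratio of 1.00 (0.854 to 1.18) and Odc1 of 1.02 (0.904 to 1.16). Odc1 was the 1 gene with enough UMIs in NK cells, at a ratio of 1.02 (0.871 to 1.19), where 7.98% of all genes were higher and 9.39% lower.

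Within neutrophil states, Arg1 was higher in the tumour type of the Momordicine-I library. It stood there at 85.8 CPM in Momordicine-I and 33.5 CPM in vehicle, a ratio of 2.56 (2.12 to 3.11), where 13.1% of all genes were higher and 5.33% lower. A UMI was found in 12.5% (10.2 to 15.1%) of Momordicine-I and 8.11% (6.00 to 10.7%) of vehicle cells, and in thinned cells in 5.60% (3.95 to 7.67%) of Momordicine-I and 2.99% (1.68 to 4.88%) of vehicle cells, so the intervals of the shares overlapped. Without the highest cell of each library the ratio was 2.77. Phagocyte markers made up 0.0796% of the UMIs of these cells in Momordicine-I and 0.0706% in vehicle.

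In hypoxic neutrophils the ratios were 0.967 (0.894 to 1.05) for Arg1 and 0.945 (0.871 to 1.03) for Nos2. Slc7a2 was lower there, at 4.17 CPM in Momordicine-I and 9.08 CPM in vehicle (0.459, 0.291 to 0.711), and Ass1 higher, at 14.0 CPM in Momordicine-I and 8.35 CPM in vehicle (1.68, 1.21 to 2.35), where 11.6% of all genes were higher and 5.15% lower. Slc7a2 was found in 17 of 958 Momordicine-I and 21 of 771 vehicle hypoxic cells, and Ass1 in 39 Momordicine-I and 27 vehicle ones. The intervals of these shares overlapped. In thinned cells Ass1 was found in 0.791% of Momordicine-I and 0.849% of vehicle ones. Without the highest cell of each library the ratios were 0.492 for Slc7a2 and 1.86 for Ass1. Nos2 had a ratio of 1.41 (1.18 to 1.70) in mature-type cells, where 17.9% of all genes were higher and 4.46% lower, and of 1.62 (1.18 to 2.22) in interferon cells, where 16.1% were higher and 7.55% lower.

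The wider pathway was read from 6 lists with 74 genes. In mononuclear phagocytes 56 of them had at least 20 UMIs, of which 2 were higher and 7 lower in the Momordicine-I library, where 7.57% of all genes were higher and 10.5% lower, with a median log2 ratio of -0.044, against -0.029 over all genes. The list of receptors and regulators that act on Arg1 or Nos2 held 5 of the lower genes among its 21 with enough UMIs, and nothing particular to the list is read from this count. Among these was Socs1, a brake on cytokine signals, at 14.0 CPM in Momordicine-I and 39.7 CPM in vehicle (ratio 0.354, 0.230 to 0.539). Irf1, which carries the interferon gamma signal to Nos2 in macrophages, stood at 58.6 CPM in Momordicine-I and 97.5 CPM in vehicle (ratio 0.602, 0.478 to 0.758). Crem, a cyclic AMP response factor, stood at 60.8 CPM in Momordicine-I and 91.4 CPM in vehicle (ratio 0.665, 0.528 to 0.840). Gatm, which makes the precursor of creatine from arginine, stood at 45.3 CPM in Momordicine-I and 72.6 CPM in vehicle (ratio 0.624, 0.479 to 0.815), and Oaz2, an antizyme that restrains ornithine decarboxylase, at 21.6 CPM in Momordicine-I and 33.6 CPM in vehicle (ratio 0.642, 0.434 to 0.954).

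In neutrophils 62 of the 74 genes had at least 20 UMIs, of which 7 were higher and 2 lower, where 11.4% of all genes were higher and 5.23% lower, with a median log2 ratio of 0.053, against 0.13 over all genes. Klf4, a transcription factor of myeloid cells, stood at 142 CPM in Momordicine-I and 87.8 CPM in vehicle (ratio 1.62, 1.52 to 1.72). Irf8, a factor of monocyte and dendritic cell fate, was lower at 13.8 CPM in Momordicine-I and 25.2 CPM in vehicle (ratio 0.546, 0.467 to 0.637). The other genes past the fold were low in level. Slc6a8, the creatine transporter, stood at 3.12 CPM in Momordicine-I and 1.11 CPM in vehicle (ratio 2.82, 1.65 to 5.06) and Spr, which makes the tetrahydrobiopterin that nitric oxide synthases need, at 7.27 CPM in Momordicine-I and 4.06 CPM in vehicle (ratio 1.79, 1.33 to 2.44). Dohh, which modifies eIF5A with a spermidine-derived group, stood at 8.61 CPM in Momordicine-I and 4.92 CPM in vehicle (ratio 1.75, 1.34 to 2.31).

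Partners of the 6 genes were also placed by class. Argininosuccinate lyase (Asl), which completes the step begun by Ass1, stood at 59.8 CPM in Momordicine-I and 44.1 CPM in vehicle in dendritic cells and at 13.8 CPM in Momordicine-I and 11.4 CPM in vehicle in neutrophils. The arginine transporter gene Slc7a1 stood at 102 CPM in Momordicine-I and 91.2 CPM in vehicle in T cells and at 14.8 CPM in Momordicine-I and 11.9 CPM in vehicle in neutrophils. Smox, a spermine oxidase, stood at 479 CPM in Momordicine-I and 690.5 CPM in vehicle in neutrophils and at 113 CPM in Momordicine-I and 60.4 CPM in vehicle in T cells. Sms, the spermine synthase, stood at 8.91 CPM in Momordicine-I and 6.27 CPM in vehicle in neutrophils and at 98.1 CPM in Momordicine-I and 84.9 CPM in vehicle in T cells. The urea cycle genes Cps1 and Otc had no UMI in any of the 10 classes.

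Genes with the most similar pattern were ranked by Pearson correlation of log levels over 20 points, 10 classes in each library, among 12106 genes. The points share libraries, and the classes differ in depth and in cells. Among the closest for Arg1 were Stab1 (0.89) and Ctsb (0.89), for Arg2 Tlr6 (0.96), Fpr2 (0.94), Slc11a1 (0.93), and for Nos2 Wfdc21 (0.93), Lrg1 (0.92), Saa3 (0.92). For Slc7a2 they were Rab3il1 (0.91), Ctsa (0.91), C1qc (0.90), for Ass1 Plcl1 (0.86), Plxnd1 (0.86), Ramp3 (0.86), and for Odc1 Mlf1 (0.92), Slc17a6 (0.90), Kcna4 (0.90). C1qc is itself a marker of a gate.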

How the data were processed

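The deposited files of the authors hold raw counts, UMIs for each gene in each barcode, with 1 matrix per group in 10x format. Per the labels' protocols the libraries were made with the 10x Genomics 3' v3.1 kit; Cell Ranger 6.0.2 and mm10 are credited to the submitters' processing notes. Of 4693 Momordicine-I and 3642 vehicle barcodes, those with under 200 genes or over 10% mitochondrial UMIs were left out, which kept 40284090 Momordicine-I and 33179710 vehicle UMIs.

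Each cell was gated by the mean of a class's marker values, scaled to the 99th percentile and at most 1, with a score of at least 0.2 and a lead of 0.1 over another lineage. Just inside these limits lay 187 Momordicine-I and 126 vehicle cells, and just outside 171 Momordicine-I and 123 vehicle cells. No doublet caller was run, and an alternative left out the top 2.5% of UMI totals. UMIs were summed per class. Ratios have exact conditional binomial, levels exact Poisson and shares Clopper-Pearson intervals, all at 95%; a count of 0 is given a limit of 3 counts. Thinning drew 2000 UMIs per cell (seed 1). The calculation was checked on simulated counts. Of each pathway list, up to 4 genes past the fold with intervals farthest from 1 were named. Members, markers and lists were chosen with earlier results of these data known. The scoring rule, T cell subsets, depth bands and Arg1 bins were set after the values were seen. Python 3.11.15, numpy 2.4.6, scipy 1.17.1 and pandas 2.3.3 were used. Some genes of the lists are not reported here.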

Additional observations from a re-analysis of the deposited data

Results flagged for a closer look

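In the cells outside every gate, which enter no comparison between classes, Ass1 stood at 61.6 CPM in the Momordicine-I library (316 UMIs in 395 cells) and at 34.8 CPM in the vehicle library (148 UMIs in 284 cells), a ratio of 1.77 (1.45 to 2.17). It was picked out because these cells lay outside the analysed classes. They carried markers of several classes, and the share of all genes past 1.5-fold in them is not given here. In the same cells Arg1 had a ratio of 0.809 (0.734 to 0.892) and Odc1 of 0.670 (0.621 to 0.724).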

How the results depend on the processing

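No paired analysis was possible because each group is 1 library. The Arg1 log2 ratio in monocytes was 0.39 with a stricter gate, 0.64 with a looser gate, 1.03 as a mean over cells and 2.12 without the highest cell of each library. In mononuclear phagocytes it was 0.48 with the stricter gate, 0.44 with the looser gate and 0.70 in thinned cells, and turned to -0.089 as a mean over cells. In neutrophils, scaling to the median gene gave -0.14 for Arg2 and -0.15 for Nos2, and leaving out the top 2.5% of UMI totals gave 0.13 for Nos2. Nos2 was found in 11.9% of Arg1-positive and 11.6% of Arg1-negative thinned Momordicine-I neutrophils and in 17.3% of Arg1-positive and 11.02% of Arg1-negative vehicle ones, and without the top 2.5% of UMI totals it was 25.8% in Arg1-positive Momordicine-I cells. Genes past 1.5-fold numbered 2040 in neutrophils and 1592 in phagocytes, against 1226 in neutrophils and 775 in phagocytes with at least 50 UMIs, and 669 in neutrophils and 576 in phagocytes past 2-fold. Thinning turned the Nos2 log2 ratio to 0.51 in monocytes and 0.20 in phagocytes, a looser gate turned Arg2 in dendritic cells to -0.44, and a limit of 5% mitochondrial UMIs turned Ass1 in B cells to 0.028. The stricter counts follow from fewer genes tested or a larger fold, and the cause of the other moves was not tested. Apart from Arg1 in phagocytes and monocytes, Arg2 and Nos2 in neutrophils and the counts and shares of Nos2 above, 345 values were computed under 10 settings, of which 287 stayed within their intervals and 54 moved. The other 4 were past 1.5-fold and turned, and are the ones given above for Nos2, Arg2 and Ass1. Ratios under 1.5-fold that changed sign are not among these 4. Depth limits what can be said of Slc7a2 in every class, and of Nos2 and Arg2 outside neutrophils.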
